A study of Mus musculus with 7 samples.

Results

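The genes described here encode the constant regions of antibodies and the proteins that assemble them, and were read from the RNA-Seq table as the 10 rows named Ighm, Ighd, Ighg1, Ighg2b, Ighg2c, Ighg3, Igha, Igkc, Jchain, and Mzb1, of 55401 genes in all. All 10 passed the filter on low counts that left 16429 genes for testing. RNA-Seq compared the knee tissue of WT mice with that of mice lacking the calcium channel TRPC1, 2 weeks after destabilization of the medial meniscus (DMM), a knee surgery that induces osteoarthritis. The 4 WT and 3 Trpc1-/- samples came from male C57BL/6J mice that were 10 weeks old at surgery, and all had undergone DMM. The Trpc1-/- mice carried the Trpc1 tm1Lbi allele, a knockout of the whole animal in which exon 8 is missing, so B cells lacked the channel as well as chondrocytes. Each sample was a pool of 2 to 3 mouse knees per the methods, and no sham-operated samples were compared here. The labels call the tissue knee articular cartilage, to which the methods add subchondral bone, and the labels give 4 WT and 3 Trpc1-/- samples where the methods give 3 and 4. The labels were followed.

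An antibody is built from heavy chains and light chains, and the constant part of its heavy chain sets its class. A B cell first makes IgM and IgD by splicing 1 long transcript to either the mu or the delta exons, and can later replace the mu exons for good by class switch recombination, which joins DNA broken before the mu exons to DNA broken before a downstream constant gene. Plasma cells, many of which live in bone marrow, secrete the antibody, with J chain joining the units of IgM and IgA and MZB1 helping heavy and light chains to fold in the endoplasmic reticulum. Switching to IgG1 is classically driven by IL-4, to IgG2c by interferon gamma, and to IgG2b and IgA by TGF-beta.

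The heavy chain constant genes lie in a row on the minus strand of chromosome 12 (GRCm38, GENCODE M21), so that a B cell that switches moves towards lower coordinates. Ighm occupies chr12:113418558-113422730 and Ighd chr12:113406604-113416324, and the first switched gene, Ighg3, starts 61.5 kb downstream of the start of Ighm. Ighg1 follows at 92.2 kb, Ighg2b at 114.8 kb, Ighg2c at 133.8 kb, and Igha, the last of the row, at 162.5 kb. Igkc, the kappa light chain constant gene, is on chromosome 6 (chr6:70726435-70726966, plus strand) and Jchain on chromosome 5 (chr5:88519809-88527891, minus strand). The 4 IgG genes are close copies, and their hinge exons are shown because they set the subclasses apart in the length of the flexible hinge and in the cysteines that tie the 2 heavy chains together. They are given 5′ to 3′ on the minus strand, from GENCODE M21, with the cysteine codons in capitals.
Ighg3, chr12:113360529-113360576: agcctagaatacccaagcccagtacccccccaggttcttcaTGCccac
Ighg1, chr12:113329844-113329882: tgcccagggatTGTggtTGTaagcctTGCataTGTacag
Ighg2b, chr12:113307261-113307326: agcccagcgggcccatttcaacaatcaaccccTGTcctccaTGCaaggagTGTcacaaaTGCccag
Ighg2c, chr12:113288263-113288325: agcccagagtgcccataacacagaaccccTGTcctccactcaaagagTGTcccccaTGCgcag

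The hinge exons ran from 39 bases in Ighg1 to 66 bases in Ighg2b and held 1 cysteine codon in Ighg3, 4 in Ighg1, 4 in Ighg2b, and 3 in Ighg2c. Ighg2b and Ighg2c were the most alike of the IgG genes, with 86.2% identity over the aligned secreted transcripts, against 72.5% to 74.7% for the other 5 pairs. Their longest identical run, of 78 bases, lies in exon 3 of both genes, at chr12:113306869-113306946 in Ighg2b and at chr12:113287869-113287946 in Ighg2c. Of the windows of 75 bases, the length of 1 read, 0.768% in Ighg2b, 0.574% in Ighg3, and 0.48% in Ighg2c recurred in another constant gene, those of Ighg3 and of Ighg2c in Ighg2b, and none of those of Ighm, Ighd, Ighg1, Igha, or Igkc did. How reads in the shared windows were divided was fixed before the counts were deposited.

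The counts on genes summed to between 52142451 and 118254070 per sample, and WT replicate 1 was the shallowest. Trpc1, the targeted gene, lay between 4.33 and 4.83 CPM (counts scaled by TMM to a common library size) in WT and between 3.04 and 3.79 CPM in Trpc1-/- samples (logFC −0.44, edgeR adjusted P = 0.407). Counts per gene also take in reads outside the deleted exon. Cartilage markers were present, with Col2a1 between 1453 and 3300 CPM, and so were markers of marrow. The 13 neutrophil markers summed to between 6030 and 19032 CPM, and the 15 B lineage markers to between 370 and 546 CPM. WT replicate 1 stood apart from every other sample, with the lowest summed neutrophil, erythroid, macrophage, and B lineage markers and the highest summed skeletal muscle markers (1391 CPM, against 70.1 to 1151 CPM).

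WT replicates 2 and 3 stood apart in another way. The share of each variable (V) gene among all heavy chain V counts describes the V gene usage of a sample. It does not identify B-cell clones. Over 99 such genes these 2 samples differed by a root mean square (RMS) of 0.466 on the log2 scale, against 0.849 to 2.11 for the other 20 pairs of samples. Over 84 kappa V genes they differed by 0.361, against 0.808 to 2.26. They were also the closest pair over all genes, with a robust SD of the log2 ratio of 0.167 against 0.202 to 0.704. Their counts still differed far beyond sampling noise, with a mean chi-square of 24.9 per gene where sampling alone gives about 1, and their labels carry different mouse numbers. They were kept as 2 samples, and the main results that rest on them are also given with the 2 summed into 1. Whether the 2 share tissue or an animal was not tested, and if they were counted as 1, WT without replicate 1 would hold 2 samples in place of 3.

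**Figure D1:**
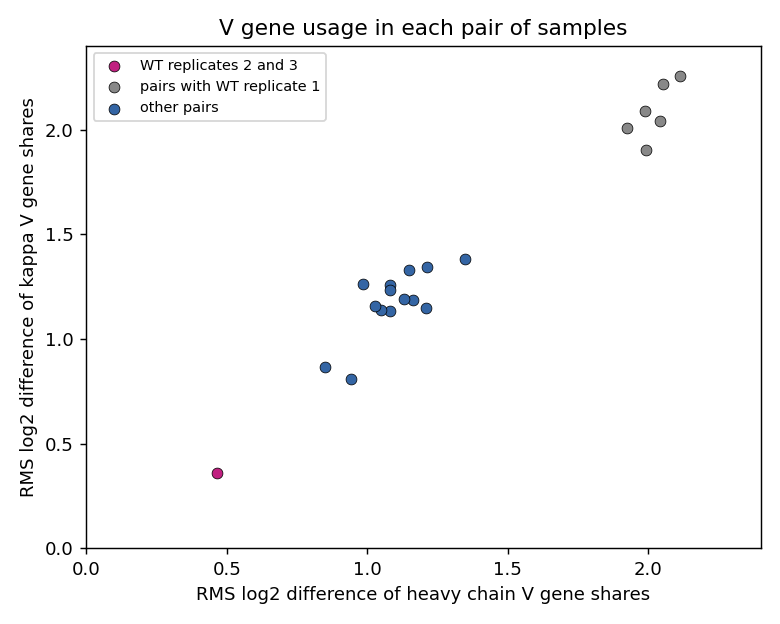
Root mean square log2 difference of V gene shares in each of the 21 pairs of samples, with heavy chain V genes on the x axis and kappa V genes on the y axis. WT replicates 2 and 3 lie at 0.466 and 0.361, below every other pair, and the 6 pairs with WT replicate 1 lie furthest out. WT replicate 1 also had the fewest counts of Ighm (9127, against 30396 or more) and Igkc (3382, against 25446 or more). The part of counting noise in its distance was not tested.

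Of the 10 genes, 0 were called between genotypes by edgeR, which called 0% of the 16429 genes tested (adjusted P under 0.05). DESeq2 called 0 of the 10 and 1.79% of all genes, and limma-voom called 0 of the 10 and 0.00609% of all genes. At an unadjusted P under 0.05, edgeR passed 1 of the 10, Ighd, and 10% of all genes. In 0 of the 10 did the groups not overlap, against 13.6% of all genes. All 10 genes were lowest among WT samples in WT replicate 1, and leaving that sample out changed this picture for the IgG genes, as described with each of them. In bulk tissue, fewer antibody-making cells and less RNA per cell cannot be told apart.

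**Figure D2:**
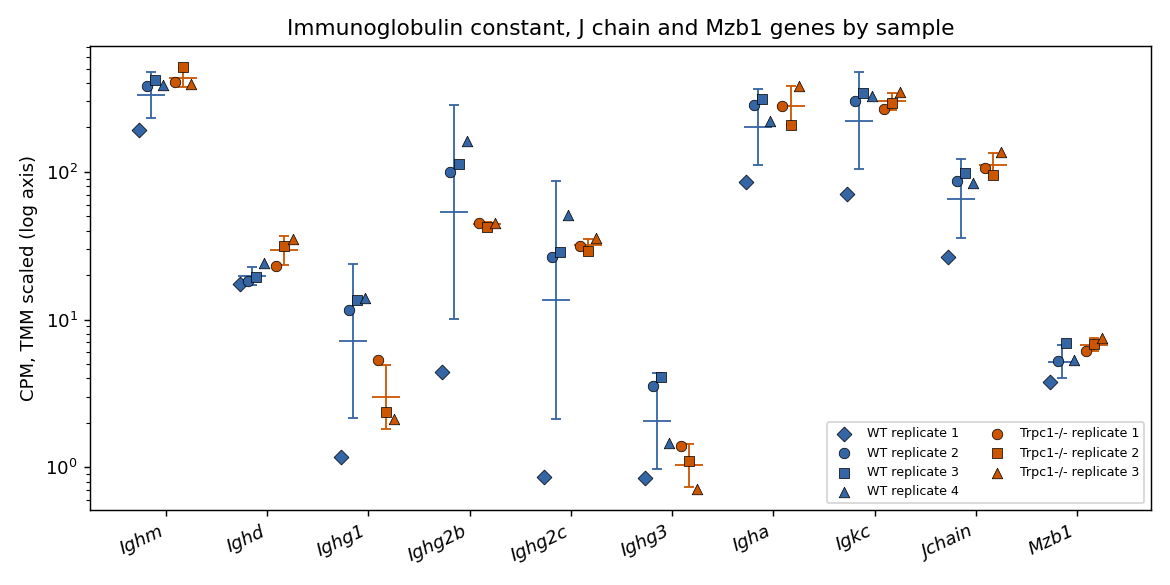
CPM after TMM scaling, on a log axis, of the 10 genes in each of the 4 WT (blue) and 3 Trpc1-/- (orange) samples, with the geometric mean and 1 SD of the log values. WT replicate 1 (diamonds) is the lowest WT sample for all 10 genes, and without it the Trpc1-/- samples lie below WT for Ighg1, Ighg2b, and Ighg3.

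Ighm (ENSMUSG00000076617), the constant gene of IgM, was read at 192, 383, 421, and 387 CPM in WT replicates 1 to 4 and at 405, 512, and 392 CPM in Trpc1-/- replicates 1 to 3. Apart from WT replicate 1, the groups overlapped. WT samples averaged 346 ± 104 CPM (SD, n = 4), the Trpc1-/- samples averaged 436 ± 66.3 CPM (SD, n = 3), and edgeR gave a logFC of 0.33 (SE 0.26, adjusted P = 0.647).

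Ighd, the constant gene of IgD, which naive mature B cells carry beside IgM, was read at 17.4, 18.4, 19.5, and 24.3 CPM in WT and at 22.9, 31.4, and 35.1 CPM in Trpc1-/- samples. All Trpc1-/- samples lay above WT replicates 1 to 3, and WT replicate 4 lay above the lowest of them. Ighd had the smallest unadjusted P of the 10 genes (0.0087) and a logFC of 0.58 (SE 0.17), which did not pass the adjusted threshold by edgeR (0.407) or DESeq2 (0.0666). WT replicate 1, though the lowest, was close to WT replicate 2, unlike in the other heavy chain genes. DESeq2 called Ighd without WT replicate 1 (adjusted P = 0.0302, with 5.49% of all genes called), without WT replicate 4 (0.0172, with 1.72%), and without Trpc1-/- replicate 1 (0.00686, with 0.513%). It did not call Ighd without WT replicate 2 (0.363), WT replicate 3 (0.189), Trpc1-/- replicate 2 (0.23), or Trpc1-/- replicate 3 (0.704). Nor did DESeq2 call Ighd with the replicate block (0.0568) or with WT replicates 2 and 3 summed (0.264). With edgeR its adjusted P without WT replicate 1 was 0.194.

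Ighg2b was the most abundant IgG gene in counts. It was read at 4.45, 99.8, 113, and 162 CPM in WT replicates 1 to 4 and at 45.0, 42.4, and 45.0 CPM in Trpc1-/- replicates 1 to 3. The Trpc1-/- samples lay close to each other, below 3 WT samples and above WT replicate 1, where 211 counts were read against 3938 to 13931 elsewhere. With all samples the logFC was −1.11 (SE 0.87, adjusted P = 0.651).

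Once WT replicate 1 was left out, the WT mean of Ighg2b was 125 ± 32.6 CPM (SD, n = 3), 2.83-fold that of the Trpc1-/- samples, at 44.1 ± 1.47 CPM (SD, n = 3). It was then called lower by edgeR (logFC −1.50, SE 0.17, adjusted P = 0.0214), as 1 of the 10 genes, while 0.32% of all genes were called. With WT replicates 2 and 3 also summed into 1 sample, it was called again (logFC −1.61, adjusted P = 0.0402), with 0.0869% of all genes called. The call thus rested on leaving out 1 library, and with all 4 WT samples the WT range included the Trpc1-/- values.

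Ighg1, read at 1.18, 11.5, 13.6, and 13.9 CPM in WT and at 5.32, 2.38, and 2.14 CPM in Trpc1-/- samples, followed the same order. WT replicate 1 was the lowest of all samples, and the other 3 WT samples lay above all Trpc1-/- samples. The logFC was −1.62 (SE 0.74, adjusted P = 0.509) with all samples and −1.98 (SE 0.32, adjusted P = 0.0725) without WT replicate 1, where the WT mean was 3.97-fold that of Trpc1-/- samples. With WT replicates 2 and 3 also summed, it was −2.01 (adjusted P = 0.224).

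Ighg3, the first IgG gene after IgD along the chromosome, was the scarcest, at 0.843, 3.56, 4.07, and 1.45 CPM in WT and 1.40, 1.1, and 0.716 CPM in Trpc1-/- samples. WT replicate 4 lay just above the highest Trpc1-/- sample, and WT replicates 2 and 3 lay well above it. These values rested on 40 to 500 counts. The logFC was −1.22 (SE 0.55, adjusted P = 0.509) with all samples and −1.50 (SE 0.41, adjusted P = 0.155) without WT replicate 1, and −1.32 (adjusted P = 0.374) with WT replicates 2 and 3 also summed.

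Ighg2c, the subclass gene that C57BL/6 mice carry in place of Ighg2a, behaved differently from the other IgG genes. It was read at 0.864, 26.4, 28.8, and 50.7 CPM in WT and at 31.3, 29.0, and 35.5 CPM in Trpc1-/- samples. The Trpc1-/- samples lay inside the WT range also without WT replicate 1, in which 41 counts were read. The logFC was 0.25 (SE 0.86, adjusted P = 0.923) and turned to −0.14 (SE 0.23, adjusted P = 0.787) without that sample.

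Without WT replicate 1, the groups did not overlap in 3 of the 10 genes, Ighg1, Ighg2b, and Ighg3, all lower in Trpc1-/- samples, against 11.4% of all genes lower and 11.4% higher. At an unadjusted P under 0.05, edgeR then passed 5 of the 10, the 3 IgG genes below and Ighd and Jchain above, against 16.9% of all genes. With WT replicates 2 and 3 also summed it passed 4 of the 10, all but Jchain, against 11.3% of all genes. DESeq2 without WT replicate 1 called 4 of the 10, Ighd, Ighg1, Ighg2b, and Ighg3, against 5.49% of all genes, and with WT replicates 2 and 3 also summed it called Ighg1 and Ighg2b, against 2.43%. Mouse numbers in the labels form 2 series, and only the lower one holds both genotypes (2 WT and 3 Trpc1-/- samples). Within it, with WT replicate 1 as 1 of the 2 WT samples, the logFC was −0.25 for Ighg2b (adjusted P = 0.895), −0.97 for Ighg1 (0.54), and −1.06 for Ighg3 (0.419).

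**Figure D3:**
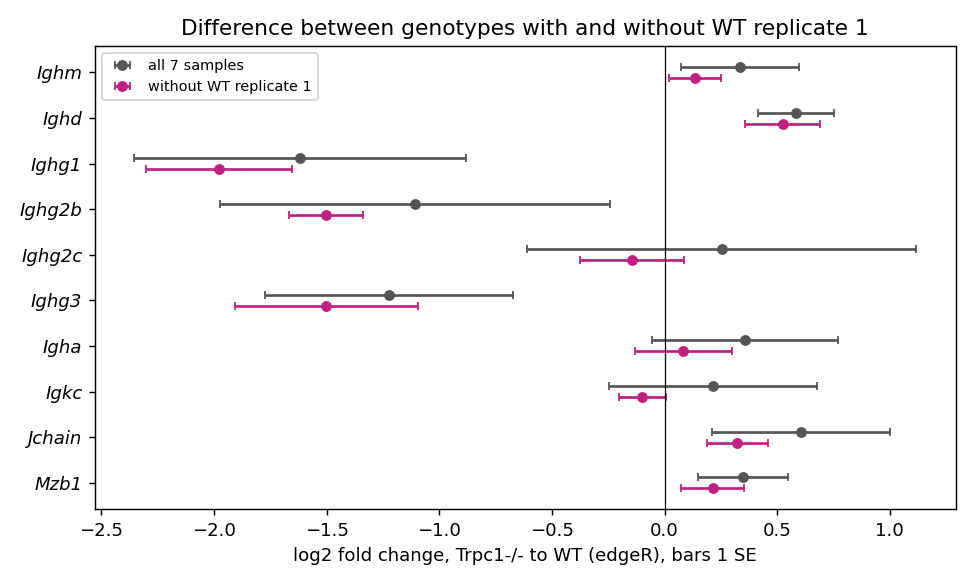
edgeR logFC of Trpc1-/- to WT on the x axis, with 1 SE, for each of the 10 genes, from all 7 samples (grey) and without WT replicate 1 (magenta). The SE of Ighg2b falls from 0.87 to 0.17 without that sample, and Ighg2c and Igkc cross 0.

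Markers of other cell types and 1 mitochondrial RNA also differed between samples, and their part in the IgG values was not tested. Of those given here, only the erythroid and T-cell sums separated the groups with all samples. Without WT replicate 1, the mitochondrial RNA and the muscle sums did so too. Of all counts, mt-Rnr2, a ribosomal RNA of mitochondria, held 19.6% in WT replicate 1, 12.3% to 12.9% in WT replicates 2 to 4, and 13.1% to 15.4% in Trpc1-/- samples. The 15 erythroid markers summed to between 19874 and 36789 CPM in WT and between 42543 and 57966 CPM in Trpc1-/- samples. The 12 T-cell markers summed to between 20.3 and 38.7 CPM in WT and between 39.1 and 41.0 CPM in Trpc1-/- samples. The 11 skeletal muscle markers summed to 1391 CPM in WT replicate 1, between 70.1 and 264 CPM in WT replicates 2 to 4, and between 414 and 1151 CPM in Trpc1-/- samples. The 18 chondrocyte markers were between 7640 and 7874 CPM in WT and between 4295 and 7744 CPM in Trpc1-/- samples. The 10 plasma cell markers summed to between 196 and 267 CPM in WT and between 247 and 260 CPM in Trpc1-/- samples, so that the latter lay within the WT range. The defining plasma cell gene Tnfrsf17 (BCMA) was below the filter.

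The proportion of 1 IgG gene to another within a sample does not depend on the scaling of libraries. The 6 ratios between the 4 IgG genes were computed after the values above had been seen and are described with no test. The ratio of Ighg2b to Ighg2c counts was 5.15, 3.78, 3.93, and 3.19 in WT replicates 1 to 4 and 1.44, 1.46, and 1.27 in Trpc1-/- replicates 1 to 3. Every WT sample, WT replicate 1 included, lay above every Trpc1-/- sample, and the geometric means differed by 2.85-fold. With WT replicates 2 and 3 summed, the log2 difference was −1.53, against −1.51 with all samples.

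The ratio of Ighg1 to Ighg2c also separated the groups, at 1.37, 0.437, 0.471, and 0.274 in WT and 0.170, 0.0821, and 0.0601 in Trpc1-/- samples. The geometric means differed by 5.59-fold, a log2 difference of −2.48 that was −2.56 with WT replicates 2 and 3 summed. In the other 4 ratios the groups overlapped. They included Ighg1 to Ighg2b, at 0.0859 to 0.265 in WT and 0.0475 to 0.118 in Trpc1-/- samples, and Ighg2c to Ighg3, at 1.02 to 34.9 in WT and 22.4 to 49.6 in Trpc1-/- samples. Relative to Ighg2c, the WT samples thus carried more Ighg2b and Ighg1 than the Trpc1-/- samples. Both of these ratios contain Ighg2c and are not separate observations. In WT replicate 1, Ighg1 to Ighg2c rested on 56 and 41 counts. How often ratios of other gene pairs separate the groups was not computed.

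**Figure D4:**
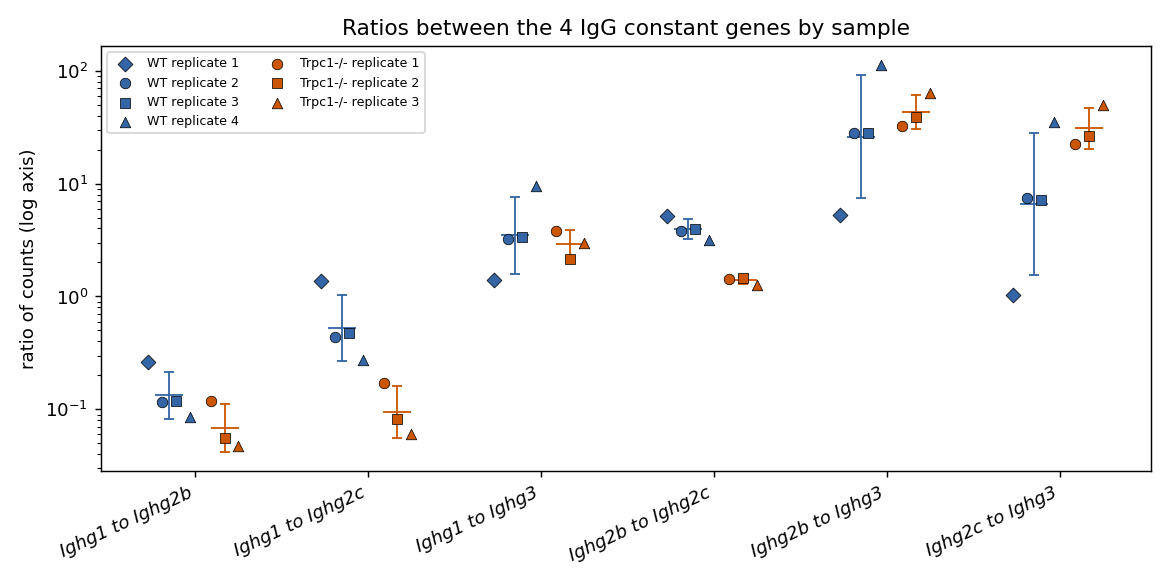
Ratio of counts, on a log axis, for each of the 6 pairs of IgG genes in the 4 WT (blue) and 3 Trpc1-/- (orange) samples, with the geometric mean and 1 SD of the log values. Ighg1 to Ighg2c and Ighg2b to Ighg2c are higher in all WT samples than in all Trpc1-/- samples, and the other 4 ratios overlap.

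Igha, the constant gene of IgA, the main antibody of mucosal surfaces, was read at 84.9, 284, 312, and 220 CPM in WT and at 279, 208, and 379 CPM in Trpc1-/- samples. The lowest value was again that of WT replicate 1, and the groups overlapped. The logFC was 0.36 (SE 0.41, adjusted P = 0.755). Igha did not share the near absence of IgG in WT replicate 1, where its level per count of Ighm (0.441) was above that of Trpc1-/- replicate 2 (0.407).

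Jchain, whose product joins IgM and IgA units, was read at 26.4, 86.5, 98.9, and 83.7 CPM in WT and at 105, 94.7, and 137 CPM in Trpc1-/- samples. The WT samples other than replicate 3 lay below all Trpc1-/- samples. The logFC was 0.60 (SE 0.39, adjusted P = 0.601), and 0.32 (SE 0.13, adjusted P = 0.285) without WT replicate 1. Its ratio to Igha was 0.311, 0.304, 0.317, and 0.38 in WT replicates 1 to 4 and 0.377, 0.454, and 0.362 in Trpc1-/- replicates 1 to 3. All Trpc1-/- samples lay above WT replicates 1 to 3, and WT replicate 4 lay inside their range, with no test made.

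Igkc was read at 71.3, 301, 343, and 324 CPM in WT and at 268, 293, and 345 CPM in Trpc1-/- samples. Without WT replicate 1 the groups overlapped closely, and the logFC went from 0.22 (SE 0.46, adjusted P = 0.874) to −0.10 (SE 0.10, adjusted P = 0.666). The lambda constant genes Iglc1, Iglc2, and Iglc3, which encode the rarer light chain of mice, made up 12.9% to 17.9% of light chain CPM per kb of exon in WT and 16.9% to 17.3% in Trpc1-/- samples. Kappa to lambda was 4.57, 5.48, 5.74, and 6.72 in WT replicates 1 to 4 and 4.79, 4.82, and 4.92 in Trpc1-/- samples. WT replicates 2 to 4 lay above all Trpc1-/- samples and WT replicate 1 below them, with no test made.

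Mzb1, the folding helper, was read at 3.75, 5.24, 6.94, and 5.33 CPM in WT and at 6.08, 6.83, and 7.46 CPM in Trpc1-/- samples. The lowest Trpc1-/- sample lay above all WT samples but replicate 3. The logFC was 0.35 (SE 0.20, adjusted P = 0.558). Mzb1 ranged less over the WT samples than the genes of secreted antibody, with an SD of 1.30 around a mean of 5.32 CPM.

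Levels were compared between genes as CPM per kb of annotated exon. In Trpc1-/- samples, Igkc led with 567 ± 73.6 CPM per kb (SD, n = 3), followed by Ighm with 231 ± 35.1, Igha with 108 ± 32.2, and Jchain with 44.7 ± 8.79. Ighg2c (24.1 ± 2.5), Ighg2b (16.5 ± 0.547), and Ighd (15.7 ± 3.28) came next, and Mzb1 (5.59 ± 0.569), Ighg1 (1.27 ± 0.684), and Ighg3 (0.426 ± 0.136) were last. Ighg2b and Ighd were the only neighbours in this order whose samples overlapped. The place of Ighg2c above Ighg2b rests on the annotation, which gives 1326 exon bases to Ighg2c and 2678 to Ighg2b. In counts, Ighg2b lay above Ighg2c in every sample. In WT the first 3 places were the same in each of the 4 samples. Ighg2b then stood above Jchain in WT replicates 2 to 4, at 37.3 to 60.4 CPM per kb, and below Mzb1 in WT replicate 1, at 1.66. Over the 4 WT samples, neighbours in the order of the means overlapped, apart from Ighd and Mzb1.

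Of all heavy chain CPM per kb, Ighm took 69.8%, 53.1%, 53.0%, and 50.6% in WT replicates 1 to 4 and 57.3%, 67.0%, and 50.3% in Trpc1-/- samples. Igha took 20.4% to 27.9% in WT and 19.3% to 34.4% in Trpc1-/- samples. The 4 IgG genes together took 2.12%, 16.5%, 16.8%, and 25.8% in WT replicates 1 to 4 and 11.5%, 9.64%, and 10.8% in Trpc1-/- samples. The IgG share of Trpc1-/- samples thus lay between WT replicate 1 and the other 3 WT samples. These shares depend on the annotated exon lengths. Without division by length, the IgG share was 2.43% in WT replicate 1, 17.1% to 26.5% in the other WT samples, and 9.06% to 10.5% in Trpc1-/- samples. These shares sum to a whole within each sample, so a lower share of 1 class is a higher share of another.

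**Figure D5:**
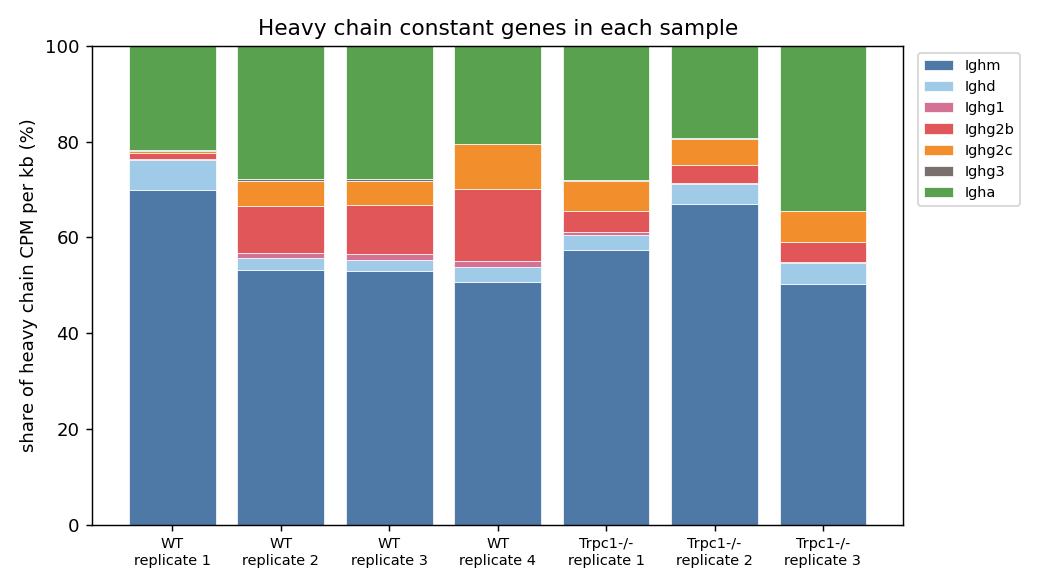
Share of each heavy chain constant gene in the summed heavy chain CPM per kb (y axis, percent) in each sample. IgG genes make up 2.12% in WT replicate 1, 16.5% to 25.8% in the other WT samples, and 9.64% to 11.5% in Trpc1-/- samples.

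The ratio of each class to Ighm was compared by exact permutation, two-sided, over all 35 assignments of genotype to sample, with Benjamini-Hochberg adjustment over the 6 ratios. The smallest P this design allows is 0.0286, and at least 4 of the 6 ratios would have to reach it for any to pass 0.05 after adjustment. An adjusted P above 0.05 thus says little of any 1 ratio, and 0 of the 6 unadjusted values lay under 0.05. Ighg3 to Ighm came closest, at 0.00438, 0.00928, 0.00967, and 0.00375 in WT and 0.00345, 0.00214, and 0.00183 in Trpc1-/- samples. All Trpc1-/- samples lay below all WT samples (log2 difference −1.38, exact permutation P = 0.0571, adjusted P = 0.257). With WT replicates 2 and 3 summed, the difference was −1.18 (exact permutation P = 0.1, the smallest that 3 against 3 samples allow, adjusted P = 0.6). Ighg1 to Ighm differed by −1.63 on the log2 scale (exact permutation P = 0.0857, adjusted P = 0.257) and by −2.24 without WT replicate 1. Ighg2b to Ighm, at 0.0231 to 0.418 in WT and 0.0828 to 0.115 in Trpc1-/- samples, differed by −0.66 (exact permutation P = 0.629, adjusted P = 0.83), by −1.60 without WT replicate 1, and by −0.21 without WT replicate 4. For Ighd, Ighg2c, and Igha, the adjusted P of the exact permutation test was 0.83.

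Ighe, the constant gene of IgE, was close to the limit of detection. It had 0, 0, 8, and 17 counts in WT and 0, 0, and 17 counts in Trpc1-/- samples, where 3 counts were taken as the floor, and did not pass the filter.

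Genes that repair the cut DNA in class switch recombination were expressed in all samples. Of the 33 tested, 27 had a logFC above 0 and 6 below, with a median of 0.08 against −0.0088 over all genes tested. At an unadjusted P under 0.05, 3 were higher and 0 lower, against 4.51% of all genes higher and 5.49% lower, and edgeR and DESeq2 called 0. Ung, which removes uracils from DNA, lay between 5.02 and 6.06 CPM in WT and between 6.20 and 6.86 CPM in Trpc1-/- samples (logFC 0.28, SE 0.11, edgeR adjusted P = 0.48). Exo1, an exonuclease of mismatch repair, lay between 15.2 and 19.2 CPM in WT and between 20.3 and 23.4 CPM in Trpc1-/- samples (logFC 0.26, SE 0.10, adjusted P = 0.479). Both genes also serve DNA replication and repair in cells of every kind. In 4 of the 33 genes, these 2 among them, all Trpc1-/- samples lay above all WT samples, against 7.15% of all genes.

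Of the cytokines and receptors that direct switching, 14 of 22 were tested, with 7 above 0 and 7 below, and 3 above and 11 below without WT replicate 1 (median −0.04). The cytokine genes Il4, Il21, Ifng, Il5, and Il10 and the T-cell ligand Cd40lg were below the filter, as was Tbx21, a factor of the interferon gamma response. Il21r, a receptor that supports antibody production, had a logFC of 0.31 (SE 0.12, adjusted P = 0.466) and was the 1 gene of the 14 at an unadjusted P under 0.05, against 10% of all genes. Tnfrsf13c, the BAFF receptor, had a logFC of 0.17 (SE 0.16, adjusted P = 0.695). The list gave 0 calls by edgeR or DESeq2.

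Among 17 tested genes of the plasma cell programme, 11 had a logFC above 0 and 6 below, with a median of 0.05. Slamf7, a surface protein of plasma and other immune cells, lay between 14.6 and 17 CPM in WT and between 18.1 and 20.5 CPM in Trpc1-/- samples (logFC 0.28, SE 0.09, adjusted P = 0.41). Pou2af1, a coactivator of immunoglobulin promoters, lay between 26.5 and 37.6 CPM in WT and between 38.6 and 42.4 CPM in Trpc1-/- samples (logFC 0.33, SE 0.13, adjusted P = 0.475). These 2 of the 17 passed an unadjusted P under 0.05, against 10% of all genes, and edgeR and DESeq2 called 0.

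Of 24 genes of the secretory pathway that antibody synthesis uses, 18 had a logFC above 0 and 6 below, with a median of 0.09 that fell to 0.00082 without WT replicate 1, where 12 were above 0 and 12 below. Manf, a protective factor of the endoplasmic reticulum, had a logFC of 0.32 (SE 0.13, adjusted P = 0.492), and Dnajb9, a cofactor of the chaperone BiP, one of 0.22 (SE 0.13, adjusted P = 0.557). edgeR and DESeq2 called 0 genes of this list, and Manf alone, 1 of the 24, passed an unadjusted P under 0.05, against 10% of all genes.

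The receptors that bind antibody had 10 tested genes of 12, all with a logFC above 0 and a median of 0.15. Without WT replicate 1, 4 were above 0 and 6 below. Fcer2a, the low-affinity IgE receptor CD23 of mature B cells, was read at 4.32, 4.60, 4.52, and 5.14 CPM in WT and at 5.36, 8.53, and 8.81 CPM in Trpc1-/- samples. All Trpc1-/- samples lay above all WT samples. Its logFC was 0.70 (SE 0.18, edgeR adjusted P = 0.395), and DESeq2, which called 1.79% of all genes, called it (adjusted P = 0.0354), the 1 call among the pathway genes listed. That call held without WT replicate 1 (0.0187) and without Trpc1-/- replicate 1 (1.44e-07) and was lost with any 1 of the other 5 samples left out (0.0571 to 0.558), with the replicate block (0.3), and with WT replicates 2 and 3 summed (0.174). Fcmr, the IgM receptor, lay between 3.92 and 9.92 CPM in WT and between 10.9 and 12.3 CPM in Trpc1-/- samples (logFC 0.49, SE 0.29, adjusted P = 0.571). Pigr, which carries IgA and IgM across epithelia, was below the filter.

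The 15 B lineage markers summed to between 370 and 470 CPM in WT and between 444 and 546 CPM in Trpc1-/- samples, with 14 of 15 above 0 and a median logFC of 0.26 (0.17 without WT replicate 1). Cd79a, a signalling chain of the B-cell receptor, had a logFC of 0.43 (SE 0.20, adjusted P = 0.51), and Vpreb1, a part of the surrogate light chain of pre-B cells, one of 0.45 (SE 0.21, adjusted P = 0.515). Their part in the values of Ighm and Ighd was not tested. Of the lambda genes, Iglc1 had a logFC of 0.64 (SE 0.43, adjusted P = 0.604) and Iglc3 one of 0.34 (SE 0.36, adjusted P = 0.733).

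The genes whose pattern over the 7 samples was most like that of each antibody gene were found by the RMS difference of mean-centred log2 CPM. For Ighm these were Ccl5 (0.0831), Ms4a1 (0.1), which encodes the B-cell surface protein CD20, and Gm22133 (0.118). For Ighd they were Bank1 (0.0665), Fcrl1 (0.0857), and Fcer2a (0.105), all of them genes of B cells. For Jchain they were the lambda variable gene Iglv1 (0.091), Ccr3 (0.104), and Iglc1 (0.128), and for Igkc the joining segments Igkj5 (0.143) and Ighj3 (0.15) and Lst1 (0.152). For Igha they were Klra1 (0.171), Iglv1 (0.174), and Gm26384 (0.176).

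The IgG genes had no neighbour as close. The nearest were Igkv4-80 (0.503), Igkv8-24 (0.527), and Gm9118 (0.543) for Ighg1, and Alox15 (0.492), Ighv1-81 (0.501), and Ighv2-3 (0.508) for Ighg2b. For Ighg2c they were Igkv9-120 (0.669), Igkv1-122 (0.682), and Gm20503 (0.7), and for Ighg3 Plac9b (0.377), Plac9a (0.38), and Igkv6-23 (0.385). Single V genes were thus nearest to all 4 IgG genes or among the nearest 3. For Mzb1 the nearest were Ndufa2 (0.0873), Gm2000 (0.0918), and Gm3531 (0.0948). An RMS difference is bounded by how much a gene varies, and the SD of log2 CPM over the samples ran from 0.34 in Mzb1 to 2.00 in Ighg2c.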

How the data were processed

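RNA-Seq was performed on 7 samples, from libraries depleted of ribosomal RNA and marked for strand. Per the submitters' processing notes and the methods, reads were trimmed with cutadapt 2.5, aligned to GRCm38 with HISAT2 2.1.0, and assembled against reference transcripts with StringTie 2.0.3. The authors deposited 1 table of estimated counts per gene, made from StringTie coverage. They were whole numbers and not normalized. All 7 sample columns were used.

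A gene was tested if 2 or more samples had over 1 CPM (16429 of 55401). Counts were scaled by TMM and tested by the quasi-likelihood test of edgeR 4.0.16 (R 4.3.3), with genotype alone and Benjamini-Hochberg adjustment over all genes tested. DESeq2 1.42.0 and limma-voom (limma 3.58.1) were alternatives. Standard errors were taken from the F statistic. Ratios were tested by exact permutation. Exon lengths, positions, and sequences came from GENCODE M21. The fits were tested on simulated data, and the permutation test on a fixed case of separated groups. Alternatives were 2 other normalizations, 2 other filters, library size without immunoglobulin genes, a replicate block, the lower series of mouse numbers alone, and each sample left out. The labels call the replicates biological.

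The genes named are the 10 antibody genes, any pathway gene called by edgeR or DESeq2, the 2 genes of smallest unadjusted P in each pathway list, the 3 genes nearest to each of the 10, and Trpc1. Any other gene named was chosen after their values were seen. The 10 genes and the lists were chosen with earlier results of these data known. A floor of 3 counts covers counting error only. Some genes covered by these lists are not reported here.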

Additional observations from a re-analysis of the deposited data

Results flagged for a closer look

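Dixon's test at its 95% critical value for 4 samples was applied to 30 values in WT, the CPM of the 10 genes, the 12 ratios, and the shares of the heavy chain genes. Chance alone sets apart about 1 in 20 such groups. It set apart WT replicate 1 in 6 of them. The gap divided by the range was 0.835 for the CPM of Ighm (192 CPM against 383 to 421 CPM in the other 3 WT samples) and 0.847 for that of Igkc (71.3 CPM against 301 to 343 CPM). It was 0.9 for the log2 ratio of Ighg1 to Ighm (−7.35 against −5.05 to −4.80) and 0.836 for that of Ighg2b to Ighm (−5.43 against −1.94 to −1.26). It was 0.87 for the share of Ighm in heavy chain CPM per kb (69.8% against 50.6% to 53.1%) and 0.841 for that of Ighg1 (0.312% against 1.16% to 1.32%). The values are not independent, since the shares and ratios share genes.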

How the results depend on the processing

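The number of the 10 genes called was 0 in 22 of 28 alternatives. Leaving out 1 sample at a time, edgeR called between 0 and 1, the 1 being Ighg2b without WT replicate 1. Alternatives chosen after seeing the data were DESeq2 with each sample left out, DESeq2 with the block, and WT replicates 2 and 3 summed. DESeq2 called 4 without WT replicate 1, 1 without WT replicate 4, and 1 without Trpc1-/- replicate 1. With WT replicates 2 and 3 summed and WT replicate 1 left out, edgeR called 1 and DESeq2 called 2. In these fits the logFC of Ighg2c turned to −0.14 (edgeR without WT replicate 1), −0.14 (DESeq2), −0.29 (summed, edgeR), and −0.29 (summed, DESeq2), and that of Igkc to −0.10, −0.095, −0.10, and −0.098. With 1 sample left out at a time, edgeR's logFC ran from −0.14 to 0.76 for Ighg2c and from −0.10 to 0.38 for Igkc. The direction of the other 8 genes held in all alternatives run. The cause was not tested.

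The number of genes called over the whole table went from 0 by edgeR to 294 by DESeq2 and to 1 by limma-voom, and to 52 by edgeR and 892 by DESeq2 without WT replicate 1. Deviations from the group means correlated at −0.199 on average between same-numbered samples and at 0.0655 between other pairs. These correlations showed no pairing by replicate number, but with so few samples they cannot exclude it. With the replicate block, edgeR called 0 of the 10 genes and 0 in all, and DESeq2 0 of the 10 and 54 in all. In the block the logFC was −0.05 for Ighg2b and 1.42 for Ighg2c.

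Within the lower series of mouse numbers, the log2 difference of Ighg2b to Ighm was 0.39 in place of −0.66. With 1 sample left out at a time, it ran from −1.60 (without WT replicate 1) to −0.21 for Ighg2b to Ighm, from −2.24 (without WT replicate 1) to −1.34 for Ighg1 to Ighm, from −0.015 to 0.39 for Ighd to Ighm, from −0.21 to 1.41 for Ighg2c to Ighm, from −0.20 to 0.42 for Igha to Ighm, and from −1.62 to −1.39 for Ighg2b to Ighg2c. The IgG share differed between groups by between −9.07 and −1.17 percentage points. Ratios to Ighm cannot pass the threshold with 1 sample left out, and their P values then say nothing of stability. Ighg3, with as few as 40 counts, and Ighe were limited by depth.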
